A study of Mus musculus with 21 samples.

Results

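Serpins are a family of structurally related proteins, most of which inhibit proteases, and 9 mouse serpin genes are described here in the uterus of mice of 3 age groups. The genes were named beforehand as Serpina9, Serpina3n, Serpina3g, Serpinb1a, Serpinb6a, Serpinb9, Serpine2, Serpinf1 and Serpini1, and each was looked up by its symbol. Of the 9, 7 were among the 12791 genes listed, and Serpina3n, an inhibitor of cathepsin G and granzyme B, and Serpini1, the neuronal inhibitor of tissue plasminogen activator, were not listed and are not analysed here. A further 6 listed genes with a serpin symbol are described beside them, which makes 13 serpins in all. The genes were chosen by earlier results on these libraries, their differences between aged and young uteri among them, so those differences are given as a description and support nothing.

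RNA was measured by sequencing of whole uterus from wild type C57BL/6J females, an inbred strain, with no other allele or transgene. The groups were 7 libraries at 5 weeks of age, 7 at 8 weeks and 6 from aged mice. All animals, of whatever age, had been primed with pregnant mare serum gonadotropin (PMSG), a hormone with follicle-stimulating activity, at 5 or 7.5 units, 48 hours before dissection. The labels do not say which libraries had which dose, so whether dose differed with age group or set is not known. The libraries form 2 sets. The earlier one is made up of replicates 1 and 2 of every group, and its aged mice were 60 to 75 weeks old. The later one is made up of the replicates above 2, and its aged mice were 79 weeks old. The labels name 2 RNA purification kits and 2 instruments, with read lengths of 60 (single) and 150 bases (paired), without assigning them to libraries, so that set, kit, instrument and the age of the aged mice cannot be told apart. The labels do not state that each replicate is a separate animal, and p-values measure only the spread between these libraries.

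Each library was taken as the sample that the header of its value column names. That header and the sample a table was attached to disagreed in 15 of 20 tables. The disagreement crossed age groups for 5-week replicate 3 and 8-week replicate 3, and crossed sets for aged replicates 2 and 5. No column names aged replicate 3, which is not analysed here. Libraries of the earlier set (n = 6) had 12204573 to 14448283 reads and those of the later set (n = 14) 19100690 to 30689439. All 8 markers of the uterus looked up, among them the steroid receptors Esr1 and Pgr, were listed, and their summed level was 591 to 1840 CPM per library, CPM being reads per 1000000 reads of listed genes.

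A typical inhibitory serpin offers an exposed reactive centre loop to a protease as bait. When the protease cuts the loop, the loop inserts into the body of the serpin and traps the enzyme, which needs a flexible hinge of small residues at the start of the loop. Clade A serpins such as Serpina9 are mostly secreted, clade B serpins such as Serpinb1a lack a classical signal peptide and act mostly inside cells against leukocyte proteases, Serpine2 acts at the cell surface, and Serpinf1 has kept the fold but inhibits no known protease. In the uterus, proteases and their inhibitors take part in tissue remodelling over the cycle, implantation and immune defence.

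The coding stretch of the loop is shown for the 7 listed genes because it is where the family members differ in what they can inhibit. It was read from the GENCODE M21 transcript of each gene (isoform 201) and found by translation, from the first hinge codon to the conserved proline and phenylalanine codons at its end, and the 10 hinge codons are in capitals:

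Serpina9: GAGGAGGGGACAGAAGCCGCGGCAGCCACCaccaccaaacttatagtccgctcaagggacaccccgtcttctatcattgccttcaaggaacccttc

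Serpina3g: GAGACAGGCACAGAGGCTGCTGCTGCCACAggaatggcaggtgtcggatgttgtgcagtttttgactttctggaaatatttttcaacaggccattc

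Serpinb1a: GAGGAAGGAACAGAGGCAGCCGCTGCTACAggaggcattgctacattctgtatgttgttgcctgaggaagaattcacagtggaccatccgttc

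Serpinb6a: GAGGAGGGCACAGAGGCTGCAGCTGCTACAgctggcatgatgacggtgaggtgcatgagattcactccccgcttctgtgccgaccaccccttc

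Serpinb9: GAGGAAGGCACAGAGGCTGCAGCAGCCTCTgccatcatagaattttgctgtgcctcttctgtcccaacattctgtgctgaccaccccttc

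Serpine2: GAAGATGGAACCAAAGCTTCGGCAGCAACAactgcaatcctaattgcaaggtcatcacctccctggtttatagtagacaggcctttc

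Serpinf1: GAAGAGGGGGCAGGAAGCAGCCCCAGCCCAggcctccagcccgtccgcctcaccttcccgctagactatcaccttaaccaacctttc

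The loops ran from 29 codons in Serpine2 and Serpinf1 to 32 in Serpina9 and Serpina3g. Serpina9, Serpinb1a and Serpinb6a encode the same 10 hinge residues, although Serpina9 and Serpinb1a share 22 of the 30 hinge bases and Serpinb1a and Serpinb6a 26. Serpina3g and Serpinb9 each share 9 of 10 hinge residues with Serpina9, and Serpine2 shares 7. Serpinf1, which is not an inhibitor, shares 3 of 10 hinge residues with Serpina9 and 16 of 30 bases. The pair that differed most by age, Serpina9 and Serpinb1a, thus have identical hinge residues and different bases in the rest of the loop.

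The genes lie in several clusters, given here on GRCm38 from the same annotation. Serpina9 (chr12:103994743-104013755, minus strand) and Serpina3g (chr12:104236245-104241939, plus strand) lie on chromosome 12, and Serpinb1a (chr13:32842092-32851185, minus), Serpinb9 (chr13:33003250-33017957, plus) and Serpinb6a (chr13:33917918-34002794, minus) on chromosome 13. Serpine2 (chr1:79794197-79861180, minus) and Serpinf1 (chr11:75409769-75422701, minus) stand apart from them. Serpin clusters in the mouse hold close copies, so the share of each gene's 60-base stretches that also occur in another gene was counted, on either strand. It was 0 for Serpine2 and Serpinf1, 0.0874% for Serpinb9, 1.02% for Serpina9 and 1.5% for Serpinb1a. For Serpina3g it was 11.5%, shared with Serpina3f, Serpina3h and Serpina3i. For Serpinb6a it was 23.5%, shared most with Nqo2, 1110046J04Rik and Ripk1, which are not serpins. These same genes lie on the other strand and overlap 29.3% of the exon bases of Serpinb6a, so both shares reflect that overlap. The library kit does not keep strand. The levels of Serpina3g and Serpinb6a are therefore uncertain.

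Summed over the 7 genes, the level was 429.9 to 541 CPM in the 4 young libraries of the earlier set and 567.8 to 1035 CPM in the 10 young libraries of the later set. In aged libraries it was 561 and 621 CPM in the earlier and 508 to 1129 CPM in the later set. To compare levels between genes, CPM was divided by exon length in kb. Serpinf1 had the highest median level per kb in every age group of both sets, from 71.1 to 94.8 CPM per kb in the earlier and from 147 to 180 in the later set. Its range overlapped that of the next gene only in the 5-week group of the earlier set, the next gene there being Serpinb1a at 62.9 CPM per kb. Serpinb1a came next in young uteri of the earlier set. In the other groups Serpinb6a came between them, with ranges that overlapped those of Serpinb1a in the young libraries of the later set. Serpinb9, Serpine2 and Serpina3g followed, and their ranges overlapped with a neighbour in most groups.

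Serpina9 changed its place in that order most. In young uteri of the later set it was last, at medians of 0.311 (5 weeks) and 0.223 CPM per kb (8 weeks), and its range did not reach that of Serpina3g above it. In aged uteri of the later set it had a median of 8.24 CPM per kb, and its range overlapped those of Serpinb9 and Serpina3g. Medians in the earlier set were 7.45 CPM per kb at 5 weeks, 5.51 at 8 weeks and 12.3 in aged uteri, with ranges that overlapped at least that of the gene below.

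**Figure D1:**
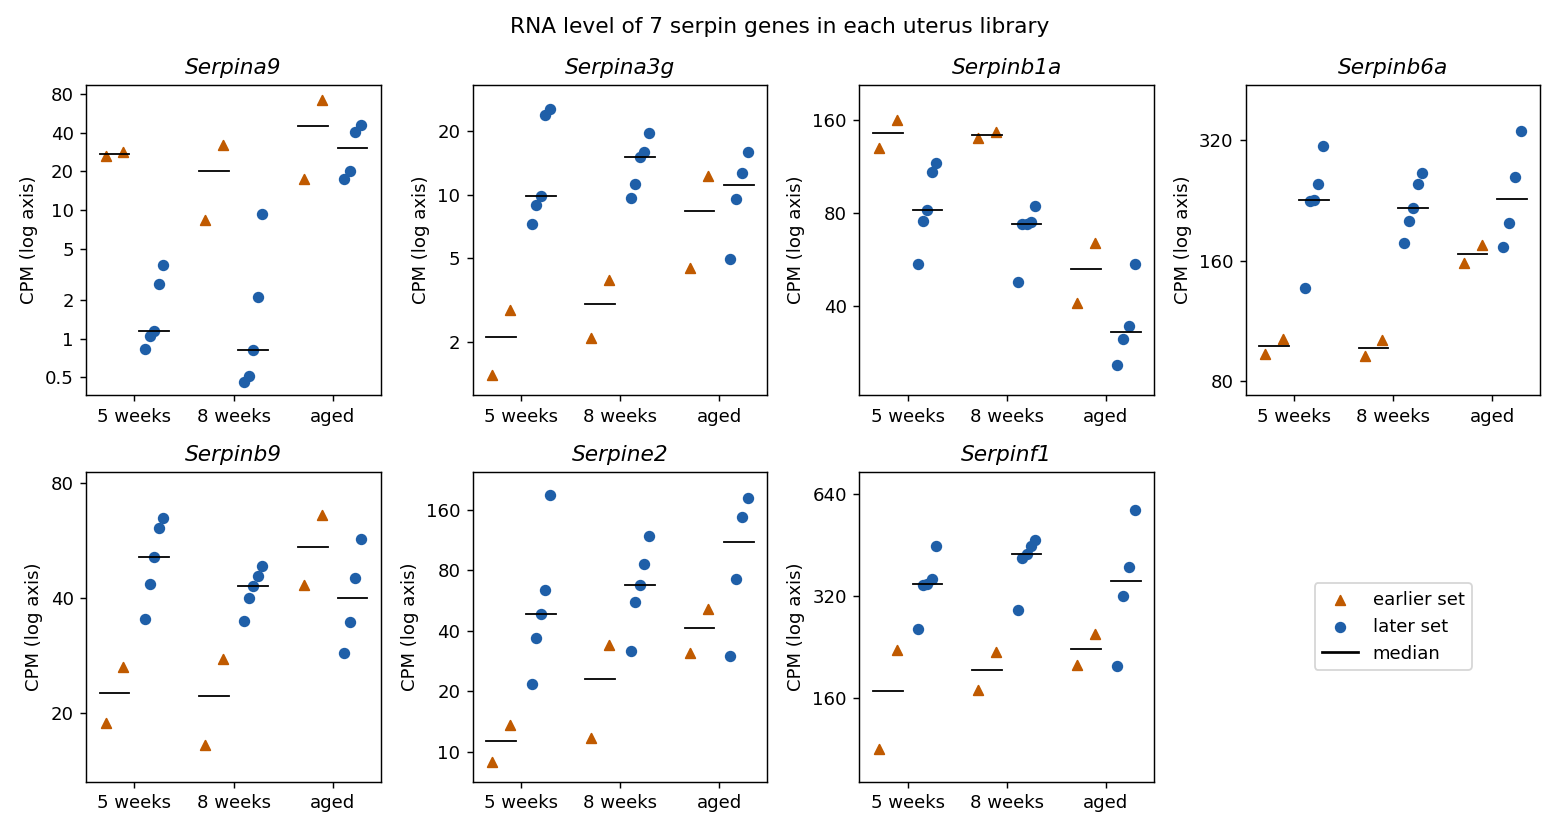
Level of 7 serpin genes in each of 20 uterus libraries, in CPM on log axes, by age group. Triangles are libraries of the earlier and circles of the later set, and bars are medians of a group within a set. Serpina9 lies at 17.6 to 46 CPM in the aged and at 0.456 to 9.32 CPM in the young libraries of the later set, whereas the groups overlap in the earlier set. Serpinb1a is lower in most aged libraries, and the other genes differ more by set than by age.

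Serpina9, also known as centerin, is an inhibitor of trypsin-like proteases best known from germinal centre B cells. Its level in libraries of the later set was 1.05, 1.14, 0.832, 3.76 and 2.67 CPM at 5 weeks and 2.12, 9.32, 0.821, 0.456 and 0.512 CPM at 8 weeks, against 20.1, 17.6, 40.5 and 46 CPM in the aged libraries. All aged libraries of this set thus lay above all young ones, as they did for 1.2% of all genes. In those of the earlier set it was 28.4 and 26.3 CPM at 5 weeks, 8.44 and 32.0 CPM at 8 weeks and 72.4 and 17.6 CPM in the aged libraries. There the groups overlapped, and the young libraries reached levels seen in aged libraries of the later set.

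Over both sets Serpina9 had a mean of 9.18 ± 12.5 CPM at 5 weeks (SD, n = 7), 7.67 ± 11.4 at 8 weeks (n = 7) and 35.7 ± 21.8 in aged uteri (n = 6). With the set as a term in the model, it was 6.51-fold higher in aged than in 8-week uteri, a difference of 2.70 ± 0.55 (SE) in log2(CPM + 1). Against 5 weeks it was 5.62-fold higher (2.49 ± 0.55). By set, the difference from 8 weeks was 1.07 (earlier) and 3.48 (later), and that from 5 weeks 0.38 and 3.46. Without the 4 libraries attached to another age group or set, the differences were 3.32 from 8 weeks and 2.97 from 5 weeks. The reads behind these values are few in young uteri: the lowest library, 8-week replicate 7, had 13 reads of Serpina9, where it ranked 12787 of 12791 genes, and the highest count was 1046 reads. Because 1 CPM was added before taking logs, the fold understates the difference of such low levels.

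Serpinb1a, an inhibitor of neutrophil elastase, cathepsin G and proteinase 3, went the other way. Its level in the later set was 117, 54.6, 109, 81.9 and 75.4 CPM at 5 weeks, 73.8, 84.0, 47.9, 74.7 and 73.5 CPM at 8 weeks and 31.2, 54.7, 34.4 and 25.7 CPM in aged uteri. It was 129 and 160.0 CPM at 5 weeks, 147 and 139.8 CPM at 8 weeks and 40.9 and 64.0 CPM in aged uteri of the earlier set. Aged libraries lay below all young ones in the earlier set, as for 24.8% of all genes, and in the later set aged replicate 5 overlapped the lowest young libraries.

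The means of Serpinb1a were 104 ± 35.9 CPM at 5 weeks (SD, n = 7), 91.5 ± 37.1 at 8 weeks (n = 7) and 41.8 ± 14.7 in aged uteri (n = 6). It was 2.18-fold lower in aged than in 8-week uteri, with a difference of -1.12 ± 0.20 (SE) in log2(CPM + 1), and 2.50-fold lower than at 5 weeks (-1.32 ± 0.20). Within the sets the difference from 8 weeks was -1.47 (earlier) and -0.97 (later), and that from 5 weeks -1.47 and -1.24. Without the 4 libraries attached to another age group or set, these differences were -1.33 from 8 weeks and -1.45 from 5 weeks.

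Serpina3g, Serpinb6a and Serpinb9 act inside cells, Serpina3g against lysosomal cathepsins, Serpinb6a against cathepsin G and Serpinb9 against granzyme B. Serpina3g had 7.28 to 25.5 CPM at 5 weeks, 9.61 to 19.6 at 8 weeks and 4.94 to 15.9 in aged libraries of the later set. The earlier set gave 2.84 and 1.40 CPM at 5 weeks, 3.93 and 2.09 at 8 weeks and 12.2 and 4.50 CPM in aged libraries. Aged libraries were thus above young ones in the earlier set, as for 30.8% of all genes, and overlapped them in the later set. Over both sets the differences were 0.06 ± 0.37 (SE) in log2(CPM + 1) from 8 weeks and 0.21 ± 0.37 from 5 weeks.

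Serpinb6a showed the same arrangement at higher levels. The earlier set gave 102 and 93.4 CPM at 5 weeks, 102 and 92.3 at 8 weeks and 175 and 157 CPM in aged libraries, and the later set 136 to 309, 177 to 265 and 173 to 338 CPM. Aged libraries lay above all young ones in the earlier set alone, as for 30.8% of all genes. Over both sets the differences were 0.31 ± 0.19 (SE) from 8 weeks and 0.29 ± 0.19 from 5 weeks.

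Serpinb9 had 18.8 and 26.4 CPM at 5 weeks, 27.8 and 16.6 at 8 weeks and 43.2 and 65.7 CPM in aged libraries of the earlier set. The later set gave 35.3 to 64.5 CPM at 5 weeks, 34.8 to 48.5 at 8 weeks and 28.8 to 57.1 in aged libraries, where all groups overlapped. By set, the difference from 8 weeks was 1.27 (earlier) and -0.07 (later). Over both sets it was 0.36 ± 0.25 (SE), and that from 5 weeks was 0.17 ± 0.25.

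Serpine2, or protease nexin 1, blocks thrombin, plasmin and the plasminogen activators at cell surfaces. Libraries of the later set had 191, 63.6, 21.7, 37.0 and 48.3 CPM at 5 weeks, 86.1, 31.6, 68.0, 118 and 55.4 CPM at 8 weeks and 148, 72.9, 184 and 30.0 CPM in aged libraries. Those of the earlier set had 13.6 and 8.85 CPM, 34.2 and 11.7 CPM, and 31.0 and 51.4 CPM. The groups overlapped in the later set, where a 5-week library had the highest value of all, 5-week replicate 3. In the earlier set both aged libraries lay above both 5-week libraries but not above both 8-week ones. For 30.8% of all genes the aged libraries of that set lay above all its young ones. The difference was 0.60 ± 0.47 (SE) from 8 weeks and 1.02 ± 0.47 from 5 weeks. The latter was 1.34 without 5-week replicate 3 and 1.38 without aged replicate 7, and passed the threshold in both of these fits and with columns attached by file (1.31).

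Serpinf1, or pigment epithelium-derived factor, is a secreted serpin that limits the growth of vessels. It had 114 and 222 CPM at 5 weeks, 169 and 218 at 8 weeks and 201 and 247 CPM in aged libraries of the earlier set. The later set gave 256 to 448 CPM at 5 weeks, 291 to 468 at 8 weeks and 199.7 to 573 in aged libraries, so that aged libraries lay on both sides of the young ones. The difference was -0.09 ± 0.22 (SE) from 8 weeks and 0.15 ± 0.22 from 5 weeks. In bulk tissue fewer cells of a type and less RNA per cell cannot be told apart, for this gene and for all others.

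By limma's test over all genes, with an adjusted p under 0.05 as the threshold, 1 of the 7 genes (Serpina9) was higher in aged than in 8-week uteri, 1 (Serpinb1a) was lower and 5 did not pass. The same counts held against 5 weeks. Of all 12791 genes, 17.2% passed against 8 weeks, 8.64% as higher and 8.53% as lower, and 22.1% passed against 5 weeks, 12.7% as higher and 9.41% as lower. Nothing is read from the counts of the 7, which were chosen with these comparisons known. Both aged comparisons use the same aged libraries. Attaching columns by file left neither gene past the threshold against 8 weeks, at 2.27 for Serpina9 and -0.87 for Serpinb1a. Serpina9 did not pass in the earlier set alone (1.07), nor Serpinb1a in the later set alone (-0.97).

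**Figure D2:**
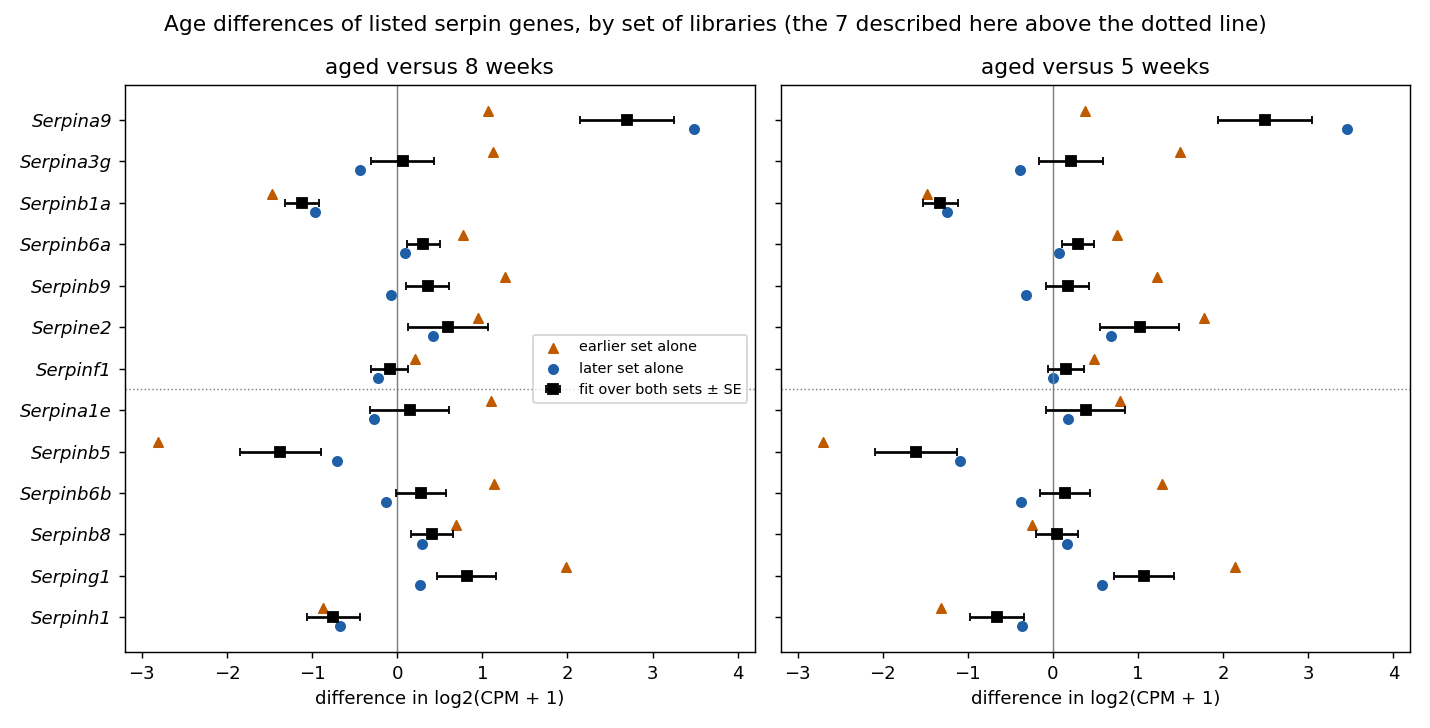
Difference in log2(CPM + 1) of 13 serpin genes between aged and 8-week uteri (left) and between aged and 5-week uteri (right). Squares with bars are the difference over both sets ± SE, and triangles and circles are the differences of means within the earlier and the later set. Serpina9 is furthest to the right over both sets (2.70 and 2.49) but at 1.07 and 0.38 in the earlier set alone, and Serpinb1a is below 0 in both sets.

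Between 5 and 8 weeks, around puberty and in the adult, no change of these genes was detected. None of the 7 and none of the 12791 genes passed limma's test (0%), and 139 genes had an unadjusted p under 0.05. The differences of the 7 genes ran from -0.21 ± 0.53 (SE) for Serpina9 to 0.42 ± 0.45 for Serpine2. Serpinb6a had the one nearest to 0, at -0.01 ± 0.18.

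In a fit that pooled all age groups, all 7 genes differed between the sets, a comparison that the choice of genes is not known to have used. In the later set Serpina3g, Serpinb6a, Serpinb9, Serpine2 and Serpinf1 were higher and Serpina9 and Serpinb1a lower, at an adjusted p under 0.05 by limma with age group as a term. Of all genes 58.7% passed this test, 20.5% as higher and 38.3% as lower, and the median difference over all genes was -0.20 in log2(CPM + 1), so that a serpin at 0 would stand above the median gene. The differences were 1.67 ± 0.41 (SE, adjusted p = 0.00172) for Serpine2, 1.53 ± 0.33 (adjusted p = 0.000571) for Serpina3g and 0.96 ± 0.17 (adjusted p = 9.03e-05) for Serpinb6a. Serpinf1 differed by 0.95 ± 0.19 (adjusted p = 0.000313). Serpinb9 differed by 0.58 ± 0.22 (adjusted p = 0.0308) and lost the call without 5-week replicate 1 (0.43), 5-week replicate 2 (0.54) or 8-week replicate 2 (0.43). Its aged libraries went the other way, with means of 54.4 CPM in the earlier (n = 2) and 41.4 CPM in the later set (n = 4).

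Serpina9 was lower in the later set by 4.58-fold, with a difference of -2.20 ± 0.49 (SE, adjusted p = 0.000778), and Serpinb1a by 1.72-fold (-0.78 ± 0.18, adjusted p = 0.000879). The Serpina9 value averages over age groups that were unlike. Its young libraries had medians of 27.4 CPM in the earlier (n = 4) and 1.1 CPM in the later set (n = 10). Its aged libraries overlapped, at 17.6 to 72.4 CPM in the earlier (n = 2) and 17.6 to 46 CPM in the later set (n = 4). With quantile normalization Serpinb1a no longer passed, at -0.45. With columns attached by file Serpinb1a (-0.65), Serpinb9 (0.60) and Serpinf1 (0.59) did not pass. For each of the 7 genes the ranges of the sets overlapped over all ages. Among young libraries alone those of Serpina3g (1.40 to 3.93 against 7.28 to 25.5 CPM), Serpinb6a (92.3 to 102 against 136 to 309), Serpinb9 (16.6 to 27.8 against 34.8 to 64.5) and Serpinf1 (114 to 222 against 256 to 468) did not overlap, which held for 10.6% of all genes with higher levels in the later set.

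Cell type markers differed between the sets along with these genes. In the later set 6 of 6 smooth muscle markers rose, 4 of 7 endometrial stroma markers rose and 4 of 8 epithelial markers fell, and none of these 3 lists had a member that moved the other way. Among immune cells 6 of 8 macrophage markers and 4 of 5 listed T and NK cell markers rose, and 6 of 8 listed plasma cell markers rose and 1 fell. Of 5 mesothelium markers 3 fell. Over all genes 20.5% rose and 38.3% fell in this comparison, so the falls of the epithelial and mesothelium markers stand beside a large share of all genes. The summed smooth muscle level was 1314 to 6575 CPM in young libraries of the earlier and 4029 to 18232 CPM in those of the later set. The summed epithelial level was 4956 to 6876 against 1669 to 4657 CPM. The part of these shifts in the serpin differences was not tested.

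Whether the difference between aged and young uteri itself differed between the sets was tested as an interaction, and none of the 7 genes passed limma's test, nor did any of the 6 other serpins described. Of all genes 0.43% passed. Serpinb9 came nearest: aged minus young was 1.25 ± 0.30 (SE) in the earlier and -0.19 ± 0.21 in the later set, a difference of -1.44 ± 0.36 (adjusted p = 0.0802). Without aged replicate 5 this difference was -1.60 and passed (adjusted p = 0.0420). For Serpina9 aged minus young was 0.72 ± 0.73 in the earlier and 3.47 ± 0.50 in the later set, a difference of 2.75 ± 0.88 (adjusted p = 0.160). The differences were -1.72 ± 0.62 for Serpina3g, -0.68 ± 0.34 for Serpinb6a and 0.36 ± 0.38 for Serpinb1a.

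The 6 other serpins described lie outside the 7, but they too were named with results of these data known, so their tests are no independent evidence. None passed limma's test between aged and 8-week uteri, where they ran from -1.37 ± 0.48 (SE) for Serpinb5 (adjusted p = 0.0538) to 0.81 ± 0.35 for Serping1 (adjusted p = 0.115). The calls at the edge depended on single libraries: Serpinb5 passed without 5-week replicate 3 (-1.36), 8-week replicate 6 (-1.68) or aged replicate 5 (-1.47), Serping1 without aged replicate 7 (1.12) and Serpinh1 without 8-week replicate 4 (-0.90) or aged replicate 5 (-0.93). In the earlier set alone Serpinb5 (-2.81) and Serping1 (1.98) passed.

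Against 5 weeks 2 of the 6 passed. Serpinb5, or maspin, a serpin of epithelia that is not an inhibitor, fell 3.05-fold (-1.61 ± 0.48 in log2(CPM + 1), adjusted p = 0.0216). It had 1.88 to 39.0 CPM at 5 weeks, 1.37 to 41.0 at 8 weeks and 2.79 to 6.83 CPM in aged libraries. Aged libraries lay below all young ones in the earlier set alone, as for 24.8% of all genes. Serpinb5 did not pass without aged replicate 1 (-1.33, adjusted p = 0.0645) or aged replicate 2 (-1.52, adjusted p = 0.0501). By set the difference was -2.70 (earlier) and -1.09 (later), and it did not pass in the later set alone (adjusted p = 0.307) or without a set term (adjusted p = 0.131).

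Serping1, the C1 inhibitor that restrains the first proteases of the complement cascade, rose 2.11-fold against 5 weeks (1.07 ± 0.35, adjusted p = 0.0336). It had 128 to 817 CPM at 5 weeks, 109.7 to 1196 at 8 weeks and 395 to 1309 CPM in aged libraries. The call was lost when any of 7 libraries was left out, namely 5-week replicates 1 (1.00), 2 (1.01) and 5 (0.91) and aged replicates 1 (0.98), 2 (0.84), 4 (1.02) and 5 (1.03). It was lost too without the 4 libraries attached to another age group or set (0.80, adjusted p = 0.169) and in the later set alone (0.57), with columns attached by file (0.98), without a set term (0.99) and after centring on the median (0.99).

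Of the others with high levels, Serpinh1, a collagen chaperone, had 1103 ± 347 CPM at 5 weeks (SD, n = 7), 1203 ± 425 at 8 weeks (n = 7) and 753 ± 395 in aged uteri (n = 6). Serpina1e, a relative of alpha-1 antitrypsin, had 372 ± 194, 479.9 ± 409 and 537 ± 405 CPM, and 26.8% of its 60-base stretches occur in other genes, so its level is uncertain. Between the sets Serping1 was higher in the later one (1.66 ± 0.31, adjusted p = 0.000156) and Serpinb5 (-1.67 ± 0.42, adjusted p = 0.00221) and Serpinb8, an intracellular inhibitor of furin (-1.29 ± 0.22, adjusted p = 6.60e-05), lower.

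The proteases, receptors and other inhibitors that act with serpins were then described from lists that were drawn up with earlier results of these data known. Of 49 proteases, 28 were listed, and 4 rose, 3 fell and 21 did not pass between 8-week and aged uteri. The shares over all genes were 8.64% higher and 8.53% lower. The list's median difference was 0.15, against 0.05 over all genes. Against 5 weeks 5 rose and 2 fell, with 12.7% and 9.41% over all genes. Elane, Prtn3 and Ctsg, the neutrophil proteases that Serpinb1a inhibits, were not listed and are not analysed here.

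Among the proteases that passed against 8 weeks, Prss22, a trypsin-like protease of epithelia, fell from 37.4 ± 56.5 CPM (SD, n = 7) to 3.78 ± 2.39 CPM (n = 6), a difference of -1.94 ± 0.57 (SE, limma adjusted p = 0.0263). It lost the call without 8-week replicate 1 (-1.58) or 2 (-1.76) or aged replicate 1 (-1.45) or 2 (-1.81), and by set it differed by -4.64 (earlier) and -0.72 (later, adjusted p = 0.568). Against 5 weeks Prss22 did not pass (-1.22 ± 0.57, adjusted p = 0.130). Htra3, a secreted serine protease of the uterus and placenta, rose from 72.7 ± 18.0 to 204 ± 103 CPM (1.35 ± 0.29, adjusted p = 0.00441), with 6 of 6 aged libraries above all 8-week libraries, which 0.946% of all genes showed. Hpn, a membrane protease, rose from 14.1 ± 8.93 to 38.0 ± 17.9 CPM (1.33 ± 0.27, adjusted p = 0.00285), with 4 of 6 aged libraries above all 8-week libraries. No share over all genes was counted for such partial separation, here or for Lrp8, A2m and Timp1 below. The 8-week libraries of Prss22 spread widely, from 2.25 to 149 CPM.

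Some genes are named for a known pairing with the 7 serpins rather than for their values. Gzmb, the granzyme that Serpinb9 inhibits, had 2.02 to 225 CPM at 5 weeks, 2.09 to 126 at 8 weeks and 1.45 to 40.4 CPM in aged libraries, with a difference from 8 weeks of -1.85 ± 0.91 (SE, limma adjusted p = 0.168). Ctsb and Ctsl, lysosomal cathepsins within reach of Serpina3g, differed by -0.24 ± 0.26 (adjusted p = 0.558) and -0.40 ± 0.39 (adjusted p = 0.501). The ranges of these genes overlapped between the groups, as did that of Serpinb9 itself over both sets.

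Of the targets of Serpine2, Plau, the urokinase plasminogen activator, differed by 0.16 ± 0.39 (SE, limma adjusted p = 0.816) between 8-week and aged uteri. Plat, the tissue plasminogen activator, had 16.9 to 289 CPM at 8 weeks and 59.9 to 685 CPM in aged libraries and differed by 1.95 ± 0.69 (adjusted p = 0.0562). Against 5 weeks, where it had 22.3 to 497 CPM, Plat rose by 2.36 ± 0.69 (adjusted p = 0.0193). This call was lost without aged replicate 2 (1.92, adjusted p = 0.0575) and in the later set alone (1.97, adjusted p = 0.199). Over both sets the ranges of Plat overlapped between the groups.

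Of 22 receptors and cofactors of serpins, 21 were listed, and 5 rose, 1 fell and 15 did not pass between 8-week and aged uteri, with a median difference of 0.21. Over all genes 8.64% rose and 8.53% fell in this comparison. Against 5 weeks 6 rose and 2 fell, where 12.7% and 9.41% of all genes did. Plxdc1 and Plxdc2, which are cell surface receptors of Serpinf1, both rose: Plxdc1 from 3.51 ± 1.76 CPM (SD, n = 7) to 13.95 ± 8.29 CPM (n = 6), a difference of 1.53 ± 0.33 (SE, limma adjusted p = 0.00388), and Plxdc2 from 26.6 ± 16.0 to 54.3 ± 14.4 CPM (1.17 ± 0.29, adjusted p = 0.0102). By set Plxdc1 differed by 1.88 (earlier) and 1.38 (later) and Plxdc2 by 2.35 and 0.62, and neither passed in the later set alone (adjusted p = 0.150 and 0.350). Pnpla2, a lipase that also binds Serpinf1, rose by 0.81 ± 0.25 (adjusted p = 0.0327). That call was lost without 8-week replicates 1 (0.74), 3 (0.72), 5 (0.80) or 7 (0.76), or aged replicates 1 (0.75) or 4 (0.65). Rpsa, the laminin receptor and another partner, differed by -0.22 ± 0.18 (adjusted p = 0.438). Serpinf1 itself differed by -0.09 ± 0.22 in the same comparison.

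Lrp8, a receptor of the lipoprotein receptor family, fell from 19.2 ± 27.3 to 1.55 ± 1.55 CPM (-2.09 ± 0.39, limma adjusted p = 0.00143), with 4 of 6 aged libraries below all 8-week libraries. By set Lrp8 differed by -3.87 (earlier) and -1.26 (later, adjusted p = 0.0603). Gpc3, a heparan sulfate proteoglycan, rose from 47.8 ± 30.3 to 104 ± 53.5 CPM (1.26 ± 0.39, adjusted p = 0.0328). It lost the call without 8-week replicates 1 (1.27), 2 (1.05), 3 (1.25) or 4 (1.17), or without aged replicates 1 (1.27), 2 (0.91) or 4 (1.22). By set it differed by 2.54 (earlier) and 0.67 (later, adjusted p = 0.433).

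Of 30 protease inhibitors outside the serpin family 15 were listed, and 1 rose, 2 fell and 12 did not pass against 8 weeks (8.64% and 8.53% of all genes), with a median difference of 0.10. A2m, a broad trap for proteases, fell from 205 ± 86.0 to 45.2 ± 34.2 CPM (-2.40 ± 0.41, limma adjusted p = 0.000801), with 5 of 6 aged libraries below all 8-week libraries. Pi15, a secreted trypsin inhibitor, fell from 125 ± 96.6 to 35.4 ± 48.3 CPM (-1.88 ± 0.54, adjusted p = 0.0219) and lost the call without aged replicate 6 (-1.63) or 7 (-1.56). By set it differed by -0.71 (earlier) and -2.41 (later) and passed in neither alone. Wfdc15b, of the whey acidic protein family, rose from 7.40 ± 4.41 to 15.9 ± 5.54 CPM (1.20 ± 0.31, adjusted p = 0.0136).

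Several serpins, Serpina3n among them, are acute phase genes under STAT3 in liver and other tissues. Of 22 acute phase and STAT3-linked genes 15 were listed, and against 8 weeks 0 rose, 4 fell and 11 did not pass, with a median difference of -0.43. The shares of all genes were 8.64% and 8.53%. Against 5 weeks 3 fell and 0 rose, with 9.41% and 12.7% of all genes. Lif, the cytokine that opens the uterus for implantation, fell from 27.5 ± 20.7 to 5.06 ± 2.27 CPM (-1.94 ± 0.57, limma adjusted p = 0.0258). It lost the call without 8-week replicates 2 (-1.78), 3 (-1.87) or 5 (-1.74), or aged replicates 1 (-1.78), 2 (-1.87) or 4 (-1.82). Timp1, an inhibitor of matrix metalloproteases, fell from 33.4 ± 6.06 to 13.1 ± 9.84 CPM (-1.51 ± 0.32, adjusted p = 0.00375), with 5 of 6 aged libraries below all 8-week libraries.

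These calls depended on the set and on how columns were attached. Of the 13 genes of the 4 lists named here as risen or fallen against 8 weeks, 10 passed in the earlier set alone (all but A2m, Pi15 and Pnpla2), and 1, A2m, in the later set alone. With columns attached by file 6 passed, and Hpn, Htra3, Lrp8, Pi15, Plxdc1, Pnpla2 and Prss22 did not. Without a set term 6 passed, and Gpc3, Lif, Lrp8, Pi15, Pnpla2, Prss22 and Wfdc15b did not. With a replicate block Gpc3 and Pnpla2 lost the call (adjusted p = 0.0534 and 0.0567).

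The 7 serpins did not vary as 1 group across the 20 libraries. After the mean of each set was subtracted, Pearson's r of log2(CPM + 1) over the 21 pairs had a median of 0.13 and ran from -0.66 (Serpina9 with Serpinb1a) to 0.73 (Serpinb6a with Serpinb9), and 12 of 21 pairs were positive. Serpina3g, Serpinb6a and Serpinb9 went together, with r of 0.71 for Serpina3g and Serpinb6a and 0.64 for Serpina3g and Serpinb9. Serpinb1a, which also acts inside cells, did not go with them. It had r of -0.15 with Serpina3g, -0.33 with Serpinb6a and -0.22 with Serpinb9. Serpine2 and Serpinf1 had an r of 0.55. Of the other serpins, Serping1 had the highest r with Serpinb6a (0.88) and 0.78 with Serpinb9, and Serpinb6b, a close relative, had 0.81 with Serpinb9. These values describe the libraries, which share age groups, depth and cell makeup within a set, and carry no test. Age group means were not subtracted, so the age differences of the genes remain in these r.

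**Figure D3:**
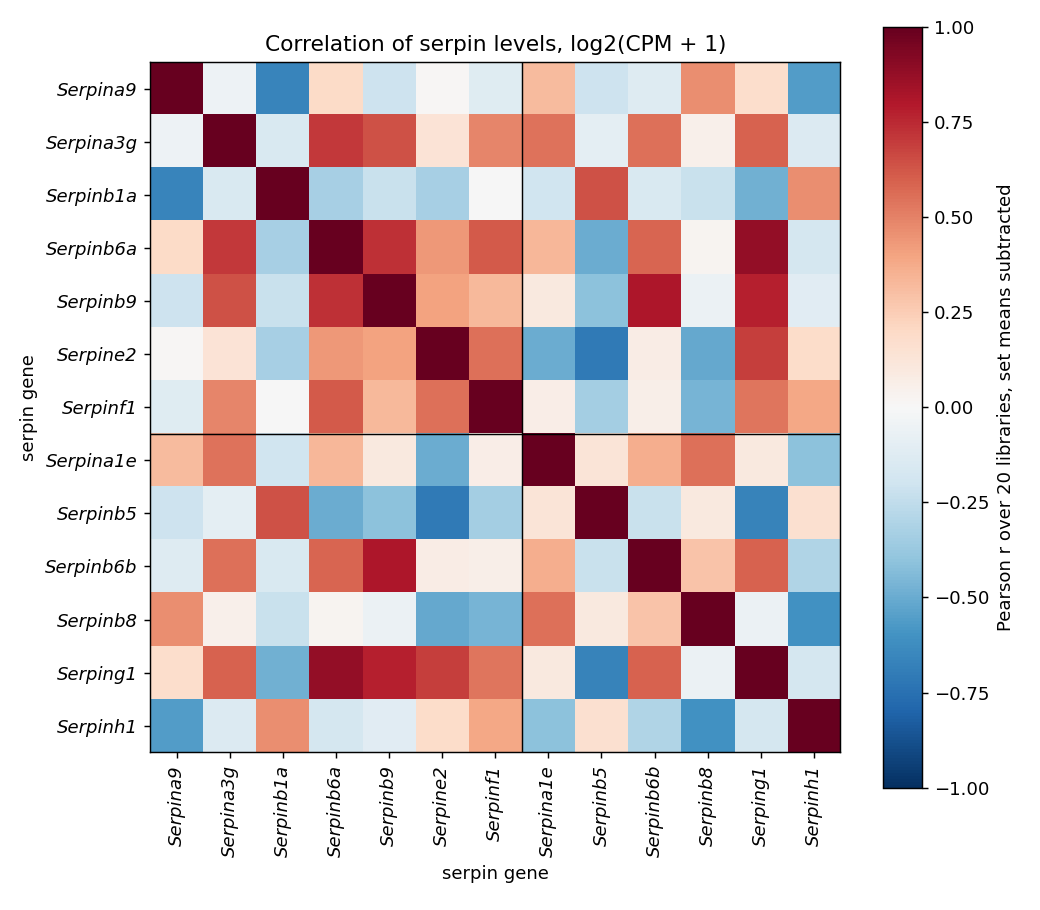
Pearson's r between 13 serpin genes over 20 libraries, from log2(CPM + 1) after subtraction of set means. Red is positive and blue negative, and the lines part the 7 genes from the other 6. Serpina3g, Serpinb6a and Serpinb9 form a red block (0.64 to 0.73), and Serpina9 with Serpinb1a is the bluest pair among the 7 (-0.66).

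The promoters of Serpina3g, Serpinb6a and Serpinb9 are shown, with the RefSeq start site after base 250 of 300 (GRCm38.p6). These 3 genes were picked by the r above, in which age differences remain. Among the 7 genes, 5 had an entry among the RefSeq promoters, with 6 starts, and Serpina9 and Serpinb1a had none. Each was searched on both strands for GAAANNGAAA, a core of interferon response elements, and for TTCNNNGAA, a core of STAT sites, and matches are in capitals. Serpina3g, from chr12:104235897-104236196 on the plus strand, holds a TTCNNNGAA match 33 bases before the start:

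Serpina3g: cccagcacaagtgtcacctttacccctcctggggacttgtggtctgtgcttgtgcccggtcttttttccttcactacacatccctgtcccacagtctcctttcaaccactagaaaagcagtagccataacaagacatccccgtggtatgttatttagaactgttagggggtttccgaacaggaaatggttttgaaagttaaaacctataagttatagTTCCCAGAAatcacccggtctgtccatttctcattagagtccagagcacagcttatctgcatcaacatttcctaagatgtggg

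Serpinb9, from chr13:33004291-33004590 on the plus strand, holds a GAAANNGAAA match, read on the other strand, 46 bases before the start:

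Serpinb9: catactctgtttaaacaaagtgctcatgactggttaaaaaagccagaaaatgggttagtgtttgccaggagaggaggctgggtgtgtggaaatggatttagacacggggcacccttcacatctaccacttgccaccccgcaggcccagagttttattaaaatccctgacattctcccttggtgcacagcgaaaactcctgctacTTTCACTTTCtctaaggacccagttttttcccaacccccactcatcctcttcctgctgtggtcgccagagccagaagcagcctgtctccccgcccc

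Serpinb6a, at its upstream start (chr13:34002745-34003044, minus strand), holds a GAAANNGAAA match 84 bases before the start, overlapped by a TTCNNNGAA match 77 bases before it, and another TTCNNNGAA match after the start:

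Serpinb6a: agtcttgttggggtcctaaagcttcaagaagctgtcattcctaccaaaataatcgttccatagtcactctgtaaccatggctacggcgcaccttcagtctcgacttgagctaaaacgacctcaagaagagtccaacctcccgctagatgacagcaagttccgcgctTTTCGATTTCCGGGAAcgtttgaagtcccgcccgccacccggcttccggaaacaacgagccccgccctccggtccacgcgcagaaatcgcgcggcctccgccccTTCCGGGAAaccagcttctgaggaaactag

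Its second start and the promoters of Serpine2 and Serpinf1 hold neither. Of all 32851 RefSeq promoters 3.44% hold GAAANNGAAA and 8.30% hold TTCNNNGAA, against 2 of 6 of the starts here for each. A match says only that these letters are present, and nothing about a factor bound there. The promoters of Serping1 and Serpinb6b, which also had high r with some of the 3 genes, were not searched. Whether the 3 genes share a control was not tested.

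For each gene the 3 genes most like it were found by the same r over 20 libraries. Serpinb6a went with Nsa2 (0.94), Fas (0.91) and Ech1 (0.90), Serpine2 with Cuedc2 (0.94), Sept4 (0.93) and Mtfr1l (0.93) and Serpina3g with H2-T22 (0.88), Ctla2b (0.88) and Gpx3 (0.87). Serpinb9 went with St3gal6 (0.86), 2610044O15Rik8 (0.86) and Plek (0.85), and Serpinf1 with Igfbp7 (0.82), Rgs5 (0.80) and Degs1 (0.80). Serpinb1a went with Zdhhc13 (0.85), Cmpk1 (0.84) and Tmed5 (0.83).

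Serpina9 went with Prom1 (0.86), Cdkn2b (0.86) and Gpr108 (0.84). Prom1, a membrane protein found on glandular epithelial cells and stem cells, had 379 and 395 CPM at 5 weeks, 196 and 400 CPM at 8 weeks and 663 and 2052 CPM in aged libraries of the earlier set. The later set gave 67.9 to 210.0 CPM at 5 weeks, 86.5 to 663 at 8 weeks and 372 to 735 CPM in aged libraries. The 8-week library with the highest Prom1 of the later set, replicate 4, was also the young library of that set with the highest Serpina9 (9.32 CPM).

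**Figure D4:**
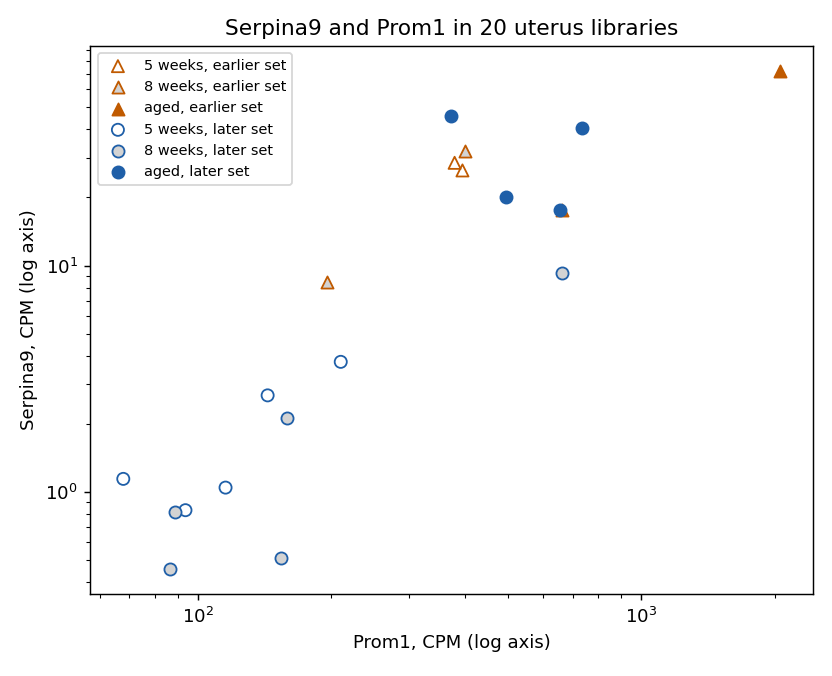
Serpina9 against Prom1 in 20 uterus libraries, both in CPM on log axes. Triangles are the earlier and circles the later set, with open, grey and filled symbols for 5 weeks, 8 weeks and aged. Aged libraries of the later set lie at 17.6 to 46 CPM of Serpina9 and 372 to 735 CPM of Prom1, and the young libraries of that set lie lower in Serpina9, with 8-week replicate 4 nearest to them.

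Markers of cell types that could carry these serpins are given beside them. Of 8 B cell markers 1, Cd79b, was listed, with 3.10 to 13.5 CPM at 5 weeks, 2.68 to 14.6 at 8 weeks and 5.56 to 40.9 CPM in aged libraries, and the others are not analysed here. Of 6 germinal centre markers 3 were listed, with summed levels of 44.2 to 89.1, 52.7 to 80.3 and 62.1 to 80.4 CPM. None of the listed B cell and germinal centre markers passed limma's test in either aged comparison.

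Of 10 plasma cell markers 8 were listed and 4 rose against 8 weeks, namely Igkc (4.67 ± 0.58, SE, limma adjusted p = 0.000129), Jchain (3.81 ± 0.53), Igha (3.47 ± 0.69) and Ighm (3.08 ± 0.48), and 0 fell. Over all genes 8.64% rose and 8.53% fell. The summed plasma cell level was 453 to 912 CPM at 5 weeks, 606 to 983 at 8 weeks and 1017 to 7579 CPM in aged libraries. Aged libraries thus lay above all young ones, and no share over all genes was counted for such a sum. Over 20 libraries with set means subtracted, Serpina9 had an r of 0.75 with the summed level of the plasma cell list. It had -0.04 with that of the germinal centre list and 0.46 with Cd79b. Age group means were not subtracted, so the higher levels of both Serpina9 and the plasma cell list in aged libraries are part of the 0.75. Single plasma cell markers ran from -0.48 (Prdm1) to 0.65 (Igkc). With the epithelial list it had 0.31, its members running from -0.17 (Cldn7) to 0.73 (Krt18, a keratin of simple epithelia). With the uterus list it had -0.19, from -0.67 (Hoxa11) to 0.62 (Foxa2, a marker of uterine glands). Foxa2 rose from 2.50 ± 1.04 to 11.9 ± 11.2 CPM (1.54 ± 0.40, adjusted p = 0.0122). By set Foxa2 differed by 0.09 (earlier, adjusted p = 0.908) and 2.20 (later), and it lost the call with columns attached by file (1.38). The part of plasma cells or of gland cells in the Serpina9 difference was not tested.

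Serpinb1a had an r of -0.74 with the summed plasma cell list, -0.58 with the red blood cell list and 0.20 with the epithelial list. Age differences are again left in these r and in those below. The 4 listed red blood cell genes rose against 8 weeks, where 8.64% of all genes did, led by Hbb-bs (1.90 ± 0.43, SE, limma adjusted p = 0.00525). Their summed level was 16.1 to 63.1 CPM at 8 weeks and 51.8 to 281 CPM in aged libraries. Against 5 weeks 0 of the 4 passed (Hbb-bs 1.09 ± 0.43, adjusted p = 0.0724), and by set Hbb-bs differed from 8 weeks by 3.48 (earlier) and 1.18 (later, adjusted p = 0.258). Of 7 neutrophil markers 1, Csf3r, was listed, with 1.32 to 23.4 CPM over all libraries, and the others are not analysed here. Serpina3g, Serpinb6a and Serpinb9 had an r of 0.73, 0.85 and 0.84 with the endometrial stroma list, and -0.41, -0.48 and -0.63 with the epithelial list. Serpine2 had 0.68 with the macrophage list and Serpinf1 0.69 with the smooth muscle list. The part of these cell types in the serpin levels was not tested.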

How the data were processed

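The values are CPM, deposited by the authors as a table for each sample and amounting to 1000000 in each library. The tools named in the submitters' processing notes are fastp, STAR, featureCounts and edgeR, with GRCm38 as the build, without versions or roles. Strand in counting is not stated in the labels. The lowest value in any library was worth 10 reads, so genes with fewer are not listed. Total reads were recomputed from the step between CPM values.

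From the CPM values, log2(CPM + 1) was fitted with limma 3.58.1 (R 4.3.3, trend) on all 20 libraries with terms for age group and set, adjusted by Benjamini-Hochberg over 12791 genes, and called under an adjusted p of 0.05. A fold change is on the log2(CPM + 1) scale. The interaction was fitted with 1 mean per group and set. The procedure was tested on simulated data. Tables were read and annotated with Python 3.11.15 and pandas 2.3.3, and 12767 of the identifiers were found in GENCODE M21.

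The genes and lists were chosen with earlier results of these data known. Named are the 9 genes, the other serpins past the threshold or with the 3 highest means, at most 4 genes per list with the greatest difference from 8 weeks, and the 3 genes most like each serpin. Genes paired with a serpin as target or receptor, and Krt18, Foxa2 and Cd79b, are outside this rule and were named with values known. Some genes of the lists are not reported here. Alternatives were pseudocounts of 0.5 and 0.1, a filter at a mean of 1 CPM, quantile and median scaling, columns attached by file, no set term, each set alone, no trend, a replicate block and each library left out. The labels do not say that a replicate number pairs libraries, so numbers were not used as pairs. Deviations of same-numbered libraries from their group and set means had r of -0.51 to 0.28 over 19 pairs. Pairs of unlike number were not compared, so these r do not settle whether the numbers pair.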

Additional observations from a re-analysis of the deposited data

Results flagged for a closer look

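In 39 groups (13 serpin genes in 3 age groups), 4 held 1 library far from the rest, by a gap test that marks about 1 group in 20 by chance where all libraries are alike. The groups here pool both sets, which differ in Serpina9, Serpine2 and Serpinb5, so that rate does not hold, and 2 of the 4 libraries are of the earlier set. Serpina9 had 32.0 CPM in 8-week replicate 2, of the earlier set, and 9.32 CPM in the next library. Serpine2 had 191 CPM in 5-week replicate 3, of the later set, against 63.6 CPM in the next, and this is 1 of the libraries attached to another age group. Serpina1e had 1382 CPM in 8-week replicate 4, against 492 CPM. Serpinb5 had 6.83 CPM in aged replicate 2, of the earlier set, against 4.18 CPM.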

How the results depend on the processing

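Of the 7 serpins, 2 passed the threshold against 8 weeks, 2 against 5 weeks, 0 between 8 and 5 weeks, 7 between the sets and 0 in the interaction. With columns attached by file, 0 passed against 8 weeks (565 of all genes, against 2196) and 4 between the sets (3403, against 7512). In the later set alone 1 passed against 8 weeks (183 of all genes) and 2 against 5 weeks (523, against 2825). In the earlier set alone 3 passed in each (3613 and 2614), with Serpinb6a (0.77) and Serpinb9 (1.27) called higher against 8 weeks. Without a set term 969 and 1380 of all genes passed, and without the 4 libraries attached elsewhere, an alternative chosen after seeing the data, 1429 did against 8 weeks and 101 in the interaction (55 with them). The causes were not tested. With 1 library left out, 2 to 2 serpins passed against 8 weeks (1309 to 2617 of all genes), 2 to 3 against 5 weeks, 0 to 0 between 8 and 5 weeks, 6 to 7 between the sets and 0 to 1 in the interaction (0 to 135 of all genes). A filter at a mean of 1 CPM removed no gene. Of 2845 values of single genes under alternatives, 2623 stayed on their side of the threshold, 204 lost and 18 gained a call, and 0 changed sign while called in either fit. These values include genes not called in the main fit, all those between 8 and 5 weeks and those of the 1 CPM filter. The count therefore says little on how stable the calls are. Of the 13 list genes named against 8 weeks, 12 lost the call in the later set alone.

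With a replicate block the counts were 2, 2 and 0 serpins, and 1637 and 2413 of all genes passed against 8 and 5 weeks. The block brought Serpinb5 under the threshold against 8 weeks (adjusted p = 0.0480) and lost Serping1 against 5 weeks (adjusted p = 0.0502). Of 19 same-numbered pairs 10 had an r over 0.1, with a median of 0.10, where replicates 1 and 2 hold the same r by construction. Tests on counts (edgeR, DESeq2) and TMM scaling were planned and not run. Low reads limit Serpina9 in young uteri, and 2 libraries per age limit the earlier set.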

Other observations

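Rpsa, the laminin receptor among the partners of Serpinf1, differed more between the sets than by age, with 36.8 to 6785 CPM at 5 weeks, 49.5 to 4538 at 8 weeks and 41.0 to 4435 CPM in aged libraries. It was higher in the later set by 6.38 ± 0.16 (SE) in log2(CPM + 1).

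Mast cells and fat cells, which can also carry serpins, left few of their markers among the listed genes. Of 6 mast cell markers 1, Kit, was listed and rose from 8.87 ± 4.71 CPM at 8 weeks (SD, n = 7) to 27.2 ± 13.3 CPM in aged uteri (n = 6), by 1.48 ± 0.35 (SE, limma adjusted p = 0.00779). Of 6 adipocyte markers 2 were listed, and both rose, Plin4 by 1.70 ± 0.53 (adjusted p = 0.0342) and Lipe by 1.18 ± 0.30 (adjusted p = 0.0118). Plin4 lost the call without 8-week replicate 1 (1.62), 2 (1.51) or 4 (1.55) or aged replicate 1 (1.31) or 4 (1.60), and by set differed by 3.06 (earlier) and 1.09 (later). Kit and Lipe passed in neither set alone, and all 3 genes lost the call with columns attached by file (1.17 for Kit, 1.63 for Plin4 and 0.96 for Lipe). In Lipe 6 of 6 aged libraries lay above all 8-week libraries, as for 0.946% of all genes. Over all genes 8.64% were called higher against 8 weeks. Against 5 weeks Plin4 did not pass (0.89 ± 0.53, adjusted p = 0.238).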
